A study of Homo sapiens with 8 samples.

Results

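The genes of cholesterol and fatty acid synthesis were followed across the 4 conditions of an RNA sequencing experiment on MYCL in prostate cancer cells. The set was chosen by name and held 36 of the 78691 genes in the count table, each with a single row. It was read as 4 groups: 18 enzymes of sterol synthesis, 4 genes that control the SREBP transcription factors, 4 genes of sterol transport and 10 genes of fatty acid synthesis, desaturation and lipid assembly. All 36 passed the filter on low counts in each of the 4 comparisons, and 3 of them had fewer than 100 counts in some library.

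C4-2B is an androgen-responsive prostate adenocarcinoma cell line, and NCI-H660 (H660 below) is a neuroendocrine prostate cancer cell line. C4-2B cells carried either an empty lentiviral vector (control) or a lentivirus that expresses human MYCL from a constitutive promoter (MYCL). H660 cells received a non-targeting shRNA (shCtrl) or an shRNA against MYCL (shMYCL). Each of the 4 groups had 2 libraries, all from poly(A)-selected RNA of cells grown in RPMI-1640 with serum. The sources differ on whether the knockdown was adenoviral and transient or stable. Gain of MYCL was tested only in C4-2B and loss of MYCL only in H660. The direction of the change in MYCL, its size and the cell line therefore cannot be told apart. Nothing states that every pair of libraries came from separate cultures, so the p-values measure the spread between these libraries, which may be technical.

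Cholesterol is built from acetyl-CoA through mevalonate, isoprenoid diphosphates, squalene and lanosterol, and fatty acids are built from the same acetyl-CoA through malonyl-CoA. Transcription of both branches is driven by the SREBP factors, which SCAP escorts out of the endoplasmic reticulum when sterols are low and INSIG proteins hold there when sterols are high. SREBF2 acts mainly on sterol genes and SREBF1 mainly on fatty acid genes. Excess cholesterol leaves cells through the exporters ABCA1 and ABCG1. In prostate cells androgens are known to raise lipid synthesis, and MYC family proteins bind the E-box.

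Library totals ran from 15177071 to 32344170 counts, and mitochondrial genes took 9.63% to 10.7% of the counts in C4-2B and 3.50% to 3.83% in H660. MYCL itself had 371 and 320 counts in C4-2B control, 65524 and 70253 in C4-2B MYCL, 1863 and 1602 in H660 shCtrl, and 165 and 198 in H660 shMYCL. Its log2 fold change was 8.26 in C4-2B and -3.06 in H660 (edgeR, adjusted p = 3.91e-09 and 4.29e-09). Of the luminal markers, KLK3 and KLK2 had 0 counts in all 4 H660 libraries, which allows up to 3 counts in each. Of the neuroendocrine markers, INSM1, NCAM1 and FOXA2 had 0 counts in all 4 C4-2B libraries. The summed TPM (a level scaled for transcript length and library size) of 9 luminal markers was 2739 to 2772 in C4-2B control, 2012 to 2062 in C4-2B MYCL and 1274 to 1427 in H660. For the 9 neuroendocrine markers it was 6.94 to 7.32 in C4-2B, 1224 to 1384 in H660 shCtrl and 993.1 to 1112 in H660 shMYCL. Between the control groups 6 of the 9 luminal markers were lower in H660 and 1 higher, past the threshold for a call given below. Their median log2 difference was -7.89, so the luminal sum does not stand for each marker. All 9 neuroendocrine markers were higher in H660. Of all genes 37.4% were higher in H660 and 34.2% lower. In C4-2B 4 of 9 luminal markers fell with MYCL, and in H660 1 of 6 tested luminal markers rose and 2 of 9 neuroendocrine markers fell on knockdown, where 8.12% of all genes fell in C4-2B, and 7.18% rose and 8.99% fell in H660. Other markers went the other way by adjusted p alone, with TMPRSS2 (log2 fold change 0.39) and KRT8 (0.33) higher in C4-2B MYCL and CHGB (0.44) and SCG3 (0.40) higher in H660 shMYCL. The part of these markers in the results on lipid genes was not tested.

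In the control libraries the sterol enzymes were the larger group by TPM in H660 and the fatty acid genes in C4-2B. The summed TPM of the 18 sterol enzymes was 1021 and 997.5 in C4-2B control and 2173 and 2049 in H660 shCtrl. The summed TPM of the 10 fatty acid genes was 1211 and 1230 in C4-2B control and 944.9 and 883.9 in H660 shCtrl. Between the lines such sums depend on the scaling. The median log2 difference of all genes, H660 over C4-2B, was 0.57 on log2(TPM + 1) and 0.04 on counts. The sums also weigh the highest genes most, and the median log2 difference of the 18 sterol enzymes on counts was 0.21. Within C4-2B control, FADS2, the desaturase that starts polyunsaturated fatty acid synthesis, had the highest level among members at 428.9 and 423.5 TPM. It was followed by SCD, the main stearoyl-CoA desaturase, at 252.3 and 251.7 TPM, and by FDFT1, squalene synthase, at 218.6 and 206.5 TPM. In H660 shCtrl the highest was SC5D, the sterol desaturase late in the pathway, at 500.6 and 444.9 TPM. Next in H660 shCtrl were SQLE, squalene epoxidase, at 273.2 and 224.4 TPM and FADS2 at 247.7 and 235.7 TPM, whose ranges overlapped. ABCA1 was the lowest member in every library, at 0.0174 to 0.216 TPM.

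**Figure D1:**
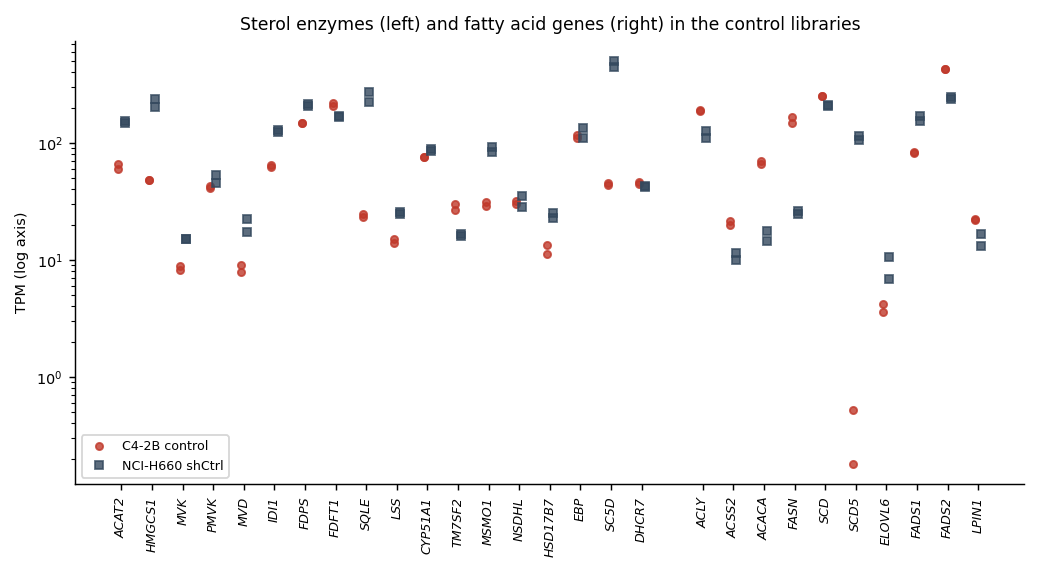
TPM on a log axis of each sterol enzyme (left) and fatty acid gene (right) in the 2 C4-2B control libraries (circles) and the 2 H660 shCtrl libraries (squares). SC5D (43.1 and 45.3 against 500.6 and 444.9 TPM) and SCD5 (0.521 and 0.180 against 114.7 and 105.5 TPM) lay far apart between the lines, while NSDHL (31.5 and 29.9 against 34.8 and 28.2 TPM) overlapped.

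Promoter windows from RefSeq (GRCh38.p14) were on hand for 31 of the 36 members. The 250 bases before the start were searched on both strands for the sterol regulatory element (TCACNCCAC), the E-box (CACGTG), the CCAAT box (CCAAT) and the GC box (GGGCGG). The CCAAT box was in the windows of 13 of 15 sterol enzymes (86.7%), 5 of 9 fatty acid genes (55.6%) and 37.0% of all 27305 genes. The GC box was in 14 of 15 sterol enzymes (93.3%), 9 of 9 fatty acid genes and 46.2% of all genes. The E-box was in 1 of 15 sterol enzymes (SC5D), 0 of 9 fatty acid genes, 4 of the 31 members (12.9%; also SCAP, INSIG1 and ABCA1) and 7.73% of all genes. The sterol regulatory element in this spelling was in the window of SREBF2 alone among the 31 members (3.23%) and in 1.09% of all genes. These are matches of letters, and no binding was measured. No window was on hand for ABCG1, ACAT2, FASN, FDFT1 and SQLE.

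The windows of 6 members are shown, up to the start of the gene in both RefSeq and GENCODE 44, in capitals where a motif matched on either strand. SREBF2 carries the sterol regulatory element (chr22:41832855-41833104, plus strand), and SC5D carries the E-box (chr11:121292521-121292680, plus). TM7SF2 (chr11:65111622-65111844, plus) and TMEM97 (chr17:28318950-28319199, plus) moved in opposite directions with MYCL in C4-2B. SCD (chr10:100346983-100347232, plus) and SCD5 (chr4:82798797-82799046, minus) are the pair of stearoyl-CoA desaturases whose levels differed between the lines.
SREBF2: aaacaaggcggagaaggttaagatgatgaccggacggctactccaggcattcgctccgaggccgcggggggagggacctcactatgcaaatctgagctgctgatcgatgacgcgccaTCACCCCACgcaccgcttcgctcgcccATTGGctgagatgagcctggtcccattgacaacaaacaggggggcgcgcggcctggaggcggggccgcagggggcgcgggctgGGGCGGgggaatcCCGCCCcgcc
TM7SF2: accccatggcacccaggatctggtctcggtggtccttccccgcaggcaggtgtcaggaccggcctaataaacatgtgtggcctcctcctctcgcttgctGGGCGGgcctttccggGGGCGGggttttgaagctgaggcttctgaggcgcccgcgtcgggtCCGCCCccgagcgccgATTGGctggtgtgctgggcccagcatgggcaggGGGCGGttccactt
TMEM97: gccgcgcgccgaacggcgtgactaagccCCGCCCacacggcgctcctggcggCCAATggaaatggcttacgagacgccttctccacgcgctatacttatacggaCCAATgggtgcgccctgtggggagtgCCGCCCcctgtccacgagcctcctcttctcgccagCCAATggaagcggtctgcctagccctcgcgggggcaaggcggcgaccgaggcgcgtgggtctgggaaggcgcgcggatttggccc
SC5D: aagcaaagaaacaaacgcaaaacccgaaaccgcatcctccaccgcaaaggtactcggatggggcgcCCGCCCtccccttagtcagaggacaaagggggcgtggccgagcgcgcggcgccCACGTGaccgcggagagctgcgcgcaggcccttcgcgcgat
SCD: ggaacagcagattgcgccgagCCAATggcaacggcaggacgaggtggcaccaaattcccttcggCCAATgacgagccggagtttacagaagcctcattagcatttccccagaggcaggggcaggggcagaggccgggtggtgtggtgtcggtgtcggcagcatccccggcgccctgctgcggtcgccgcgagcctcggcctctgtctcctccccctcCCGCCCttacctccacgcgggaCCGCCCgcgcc
SCD5: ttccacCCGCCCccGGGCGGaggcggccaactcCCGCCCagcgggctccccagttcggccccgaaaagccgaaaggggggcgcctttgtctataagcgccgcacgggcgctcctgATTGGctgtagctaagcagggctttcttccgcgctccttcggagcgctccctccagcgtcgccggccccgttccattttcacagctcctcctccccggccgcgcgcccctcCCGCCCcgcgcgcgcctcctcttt

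MYCL overexpression in C4-2B was followed by called changes of sterol enzymes in both directions. Their log2 fold changes were below 0 for 12 of 18, and their summed TPM was 1021 and 997.5 in control and 920.3 and 891.8 in MYCL. Of the 18 enzymes, 3 rose and 2 fell past the threshold used for a call throughout (edgeR adjusted p under 0.05, with a log2 fold change of 0.5 or more in either direction), where 19.9% of the 16866 genes tested were called, 11.8% higher and 8.12% lower. By adjusted p alone 4 were higher and 4 lower, with 17.6% of all genes higher and 17.4% lower. The median log2 fold change of the 18 was -0.10, and that of all genes was -0.002. Scaled as TPM, the median of all genes moved to -0.14 and the calls turned from 1986 higher and 1369 lower to 1006 higher and 1997 lower, so fold changes here are relative to the TMM scaling of the counts.

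The strongest change of a sterol enzyme was in ACAT2, the cytosolic thiolase that condenses acetyl-CoA at the entry of the pathway. Its normalised CPM (counts scaled to library size) were 75.1 and 68.3 in control and 31.4 and 35.0 in MYCL. The MYCL libraries lay far below the control libraries, with a log2 fold change of -1.11 ± 0.09 (SE) and an edgeR adjusted p of 7.33e-05. ACAT2 (chr6:159762045-159779112) shares 17.2% of its exon bases with TCP1 on the opposite strand, and strand use in the counting is not given in the sources used here. EBP, the sterol isomerase, also fell, from 89.8 and 83.6 CPM to 56.9 and 61.5 CPM (log2 fold change -0.55 ± 0.08, edgeR adjusted p = 0.00115). Another annotated gene on the same strand covers 36.4% of the exon bases of EBP.

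TM7SF2, a sterol reductase that acts just after lanosterol demethylation, moved the other way. It had 31.3 and 34.9 CPM in control and 46.9 and 55.1 CPM in MYCL (log2 fold change 0.63 ± 0.10, edgeR adjusted p = 0.00185). FDFT1, which commits farnesyl diphosphate to sterols, rose from 271.5 and 256.3 CPM to 367.3 and 384.7 CPM (0.52 ± 0.07, edgeR adjusted p = 0.000811). MVD, the decarboxylase that ends the mevalonate segment, had 13.1 and 11.2 CPM in control and 15.2 and 20.1 CPM in MYCL (0.53 ± 0.15, edgeR adjusted p = 0.0267). Calls on these genes were close to the threshold. Without control replicate 2 the log2 fold change was 0.42 for MVD and 0.47 for FDFT1, without MYCL replicate 2 it was 0.32 and 0.48, and without MYCL replicate 1 that of EBP was -0.49, all short of a call. On log2(TPM + 1) FDFT1 was at 0.35, MVD at 0.34 and TM7SF2 at 0.48, again short of a call.

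The other 13 sterol enzymes had log2 fold changes between -0.37 and 0.32. SQLE (-0.37, edgeR adjusted p = 0.0139) and CYP51A1, lanosterol demethylase (-0.34, 0.00481), were lower, and MSMO1, the sterol methyl oxidase (0.32, 0.0202), was higher by adjusted p alone. SQLE had 49.4 and 48.2 CPM in control and 40.1 and 35.0 CPM in MYCL, with no overlap, and its change became a call at -0.56 on log2(TPM + 1). HMGCS1, which makes HMG-CoA, had 139.7 and 136.4 CPM in control and 131.6 and 119.2 CPM in MYCL (-0.13, edgeR adjusted p = 0.219). SC5D was at 76.9 and 80.2 CPM in control and 77.9 and 77.7 CPM in MYCL. Its log2 fold change of -0.01 had an approximate 95% interval from -0.15 to 0.14.

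None of the 4 SREBP control genes was called in C4-2B (0 of 4), where 19.9% of all genes were called. SREBF2, the sterol-side factor, had 157.9 and 181.5 CPM in control and 206.4 and 221.2 CPM in MYCL (log2 fold change 0.34 ± 0.09, edgeR adjusted p = 0.0139). SCAP had a log2 fold change of -0.25 (edgeR adjusted p = 0.0379). SREBF1 stood at 411.5 and 482.8 CPM in control and 465.1 and 460.6 CPM in MYCL, and the groups overlapped. INSIG1, itself a target of SREBP, had 236.2 and 211.2 CPM in control and 286.7 and 231.9 CPM in MYCL (0.22, edgeR adjusted p = 0.143).

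Of the 4 sterol transport genes, 3 were called in C4-2B, where 19.9% of all genes were called. ABCG1, which exports cholesterol to lipoproteins and is a target of the oxysterol receptors, rose most among all 36 members. Its CPM went from 6.24 and 8.39 to 24.3 and 25.5 (log2 fold change 1.79 ± 0.15, edgeR adjusted p = 7.33e-05). The lowest MYCL library lay above the highest control library, and the log2 value stayed between 1.57 and 2.00 when any library was left out. STARD4, a soluble sterol carrier, rose from 18.1 and 18.8 CPM to 26.8 and 26.5 CPM (0.53 ± 0.10, edgeR adjusted p = 0.00293), with 0.50 and no call without control replicate 1 and 0.29 on log2(TPM + 1). TMEM97, the sigma-2 receptor of the endoplasmic reticulum, fell from 143.4 and 141.9 CPM to 80.2 and 90.4 CPM (-0.74 ± 0.08, edgeR adjusted p = 0.000247). ABCA1, the exporter that loads cholesterol onto apolipoprotein A-I, had 20, 13, 8 and 3 counts in the 4 libraries and was too low for a comparison.

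The fatty acid branch showed no called gene in C4-2B (0 of 10, beside 19.9% of all genes), with a median log2 fold change of 0.09. By adjusted p alone 2 were higher and 2 lower, with 17.6% of all genes higher and 17.4% lower. SCD went from 1133 and 1122 CPM to 1524 and 1484 CPM (0.42 ± 0.07, edgeR adjusted p = 0.00156), and ACSS2, which makes acetyl-CoA from acetate, from 46.3 and 49.6 CPM to 62.7 and 62.9 CPM (0.40 ± 0.08, 0.00496). FADS2 (-0.28, edgeR adjusted p = 0.0245) and ACLY, which makes acetyl-CoA from citrate (-0.26, 0.0172), were lower. FASN, the synthase that makes palmitate, had 1093 and 1213 CPM in control and 1049 and 900.9 CPM in MYCL (-0.24, edgeR adjusted p = 0.0777). ACACA, which makes malonyl-CoA, was at 501 and 521.2 CPM in control and 499.2 and 439.3 CPM in MYCL (-0.12, edgeR adjusted p = 0.302). SCD5 had only 40, 10, 40 and 27 counts, and its log2 fold change of 1.13 (edgeR adjusted p = 0.123) became a call at 2.12 without control replicate 1. Over all 36 members, 8 were called in C4-2B, or 5 higher and 3 lower, a share near the 19.9% of all genes called.

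**Figure D2:**
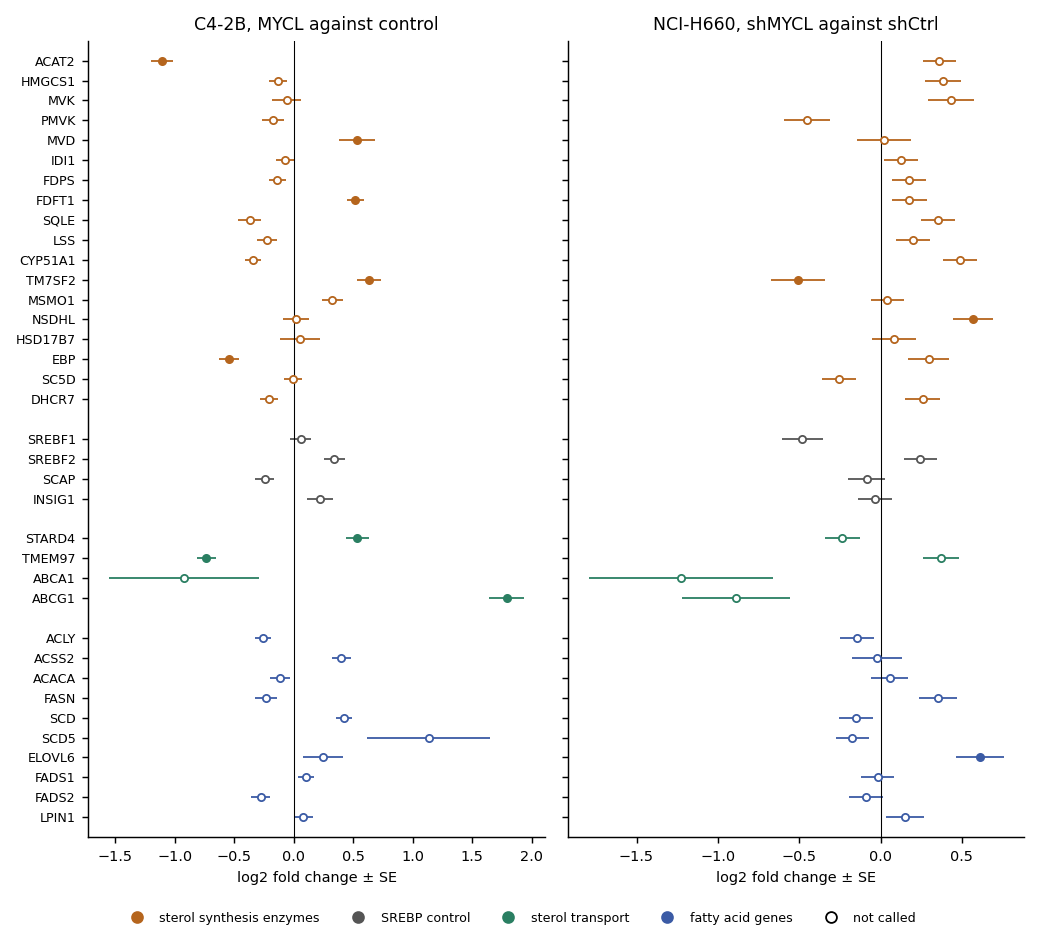
Log2 fold change with its SE (horizontal bars) for the 36 members, MYCL against control in C4-2B (left) and shMYCL against shCtrl in H660 (right), coloured by group; filled points were called and open points were not. In C4-2B the sterol enzymes spread to either side of 0, from -1.11 (ACAT2) to 0.63 (TM7SF2), while in H660 15 of the 18 lay to the right of 0.

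Knockdown of MYCL in H660 gave small changes that mostly had the same sign among the sterol enzymes. Their log2 fold changes were above 0 for 15 of 18, with a median of 0.19 beside -0.003 for all genes. Of the 18, 1 rose and 1 fell by a call, where 16.2% of the 16980 genes tested were called, 7.18% higher and 8.99% lower. By adjusted p alone 6 were higher and 2 lower, against 12.0% and 12.7% of all genes. The summed TPM of the 18 enzymes was 2173 and 2049 in shCtrl and 2264 and 2455 in shMYCL.

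NSDHL, a sterol dehydrogenase that removes a methyl group from lanosterol derivatives, rose from 24.1 and 22.3 CPM in shCtrl to 33.3 and 35.6 CPM in shMYCL (log2 fold change 0.57 ± 0.12, edgeR adjusted p = 0.00352). TM7SF2 fell from 12.4 and 12.4 CPM to 8.17 and 9.27 CPM (-0.51 ± 0.17, edgeR adjusted p = 0.0366), opposite in sign to most of the enzymes. That call was lost with DESeq2 (adjusted p = 0.136) and on every TPM scale. It was also lost without shCtrl replicate 1 (-0.50), without shMYCL replicate 1 (-0.41) and without shMYCL replicate 2 (-0.60, by adjusted p). Higher by adjusted p alone were CYP51A1 (0.49), MVK, mevalonate kinase (0.43), HMGCS1 (0.39), ACAT2 (0.36) and SQLE (0.35), with edgeR adjusted p from 0.00326 to 0.0355. CYP51A1 had 138 and 141.7 CPM in shCtrl and 185.6 and 207.9 CPM in shMYCL, and HMGCS1 had 433.4 and 394.5 against 503.1 and 580.5 CPM. Annotated genes share 68.2% of the exon bases of CYP51A1 on the same strand and 37.7% of those of HMGCS1 on the other strand. PMVK, phosphomevalonate kinase, went the other way, from 20.2 and 24.7 to 15.9 and 17.0 CPM (-0.45, edgeR adjusted p = 0.0292). SC5D was also lower on knockdown, without a call (-0.25, edgeR adjusted p = 0.0857). It had 590 and 552.6 CPM in shCtrl and 462.1 and 498.3 CPM in shMYCL, with no overlap. Single libraries decided several of these: without shMYCL replicate 1 CYP51A1 (0.58) and MVK (0.57) were called, without shCtrl replicate 1 PMVK (-0.59), and without shCtrl replicate 2 CYP51A1 (0.51) and EBP (0.51, beside 0.30 with all libraries).

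Beyond the enzymes, SREBF1 had 30.1 and 30.5 CPM in shCtrl and 20.5 and 23.1 CPM in shMYCL (log2 fold change -0.48 ± 0.13, edgeR adjusted p = 0.0116), called at -0.57 without shMYCL replicate 2, and SREBF2 had 158.5 and 159 against 192.8 and 184.4 CPM (0.25 ± 0.10, 0.0883). No SREBP control or transport gene was called (0 of 4 in either group), although TMEM97 was at 111.2 and 94.7 CPM in shCtrl and 133 and 133.8 CPM in shMYCL (0.37, edgeR adjusted p = 0.0204). ABCG1 had 3.02 and 5.26 CPM in shCtrl and 2.43 and 2.06 CPM in shMYCL. Its log2 fold change of -0.89 ± 0.33 missed the threshold (edgeR adjusted p = 0.0628) and passed it without shCtrl replicate 1 (-1.23), with no filter (-0.89), with at least 10 counts in every library (-0.90), with the replicate block (-0.85) and in the fit of all 4 groups (-0.89). In the fatty acid branch 1 of 10 was called, beside 16.2% of all genes, with a median of -0.02. ELOVL6, which lengthens palmitate, rose from 21.8 and 15.9 CPM to 28.6 and 29.0 CPM (0.61 ± 0.15, edgeR adjusted p = 0.00715), with 0.40 and no call without shCtrl replicate 2. FASN had 114.8 and 129.6 CPM in shCtrl and 170.7 and 142.7 CPM in shMYCL (0.35, edgeR adjusted p = 0.0342). SCD had 597.5 and 626.1 against 524 and 581 CPM (-0.15, 0.322). Over all 36 members, 3 were called in H660, or 2 higher and 1 lower, where 16.2% of all genes were called.

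**Figure D3:**
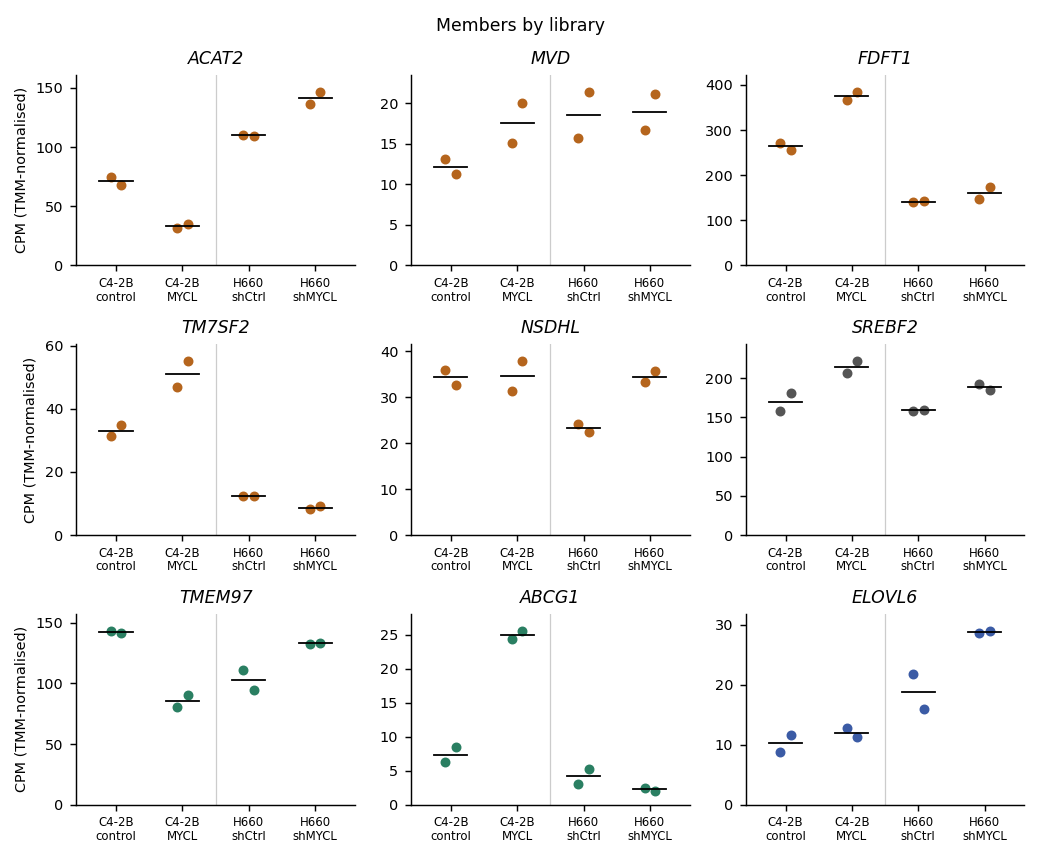
TMM-normalised CPM from 0 for 9 members, with a point per library and a line at the mean of each group of 2. ACAT2 (31.4 and 35.0 CPM) and TMEM97 (80.2 and 90.4 CPM) were lowest in C4-2B MYCL, ABCG1 was highest there (24.3 and 25.5 CPM), and NSDHL was lowest in H660 shCtrl (24.1 and 22.3 CPM).

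Between the lines members were called about as often as all genes. Sterol enzymes were called in both directions, and fatty acid genes were mostly lower in H660. H660 shCtrl against C4-2B control compares line, vector and virus at once, which cannot be told apart, and 71.6% of the 18748 genes tested were called, 37.4% higher in H660 and 34.2% lower. Of the 36 members 24 were called, a share near that background. Among the sterol enzymes 11 of 18 were called, 6 higher and 5 lower, with a median log2 fold change of 0.21. Among the fatty acid genes 9 of 10 were called, 2 higher and 7 lower, with a median of -1.24 beside 0.04 for all genes. TPM scaling moved the median of all genes to 0.57 on log2(TPM + 1) and the calls from 7014 higher and 6413 lower to 8530 and 3415, so values near 0 depend on the scaling.

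On the sterol side SC5D had 76.9 and 80.2 CPM in C4-2B control and 590 and 552.6 CPM in H660 shCtrl (log2 difference 2.86 ± 0.09, edgeR adjusted p = 8.14e-11). SQLE had 49.4 and 48.2 against 362.3 and 329.6 CPM (2.82 ± 0.09, 1.29e-10), and HMGCS1 139.7 and 136.4 against 433.4 and 394.5 CPM (1.58 ± 0.09, 9.82e-09). MSMO1 (0.89), ACAT2 (0.61) and MVD (0.60) were also higher in H660, with MVD short of a call at 0.48 without C4-2B control replicate 2 and at 0.38 without H660 shCtrl replicate 2. Lower were TM7SF2 (-1.43), FDFT1 (-0.90), DHCR7, the reductase that ends the pathway (-0.71), NSDHL (-0.57) and EBP (-0.52). For NSDHL and EBP the sign turned on log2(TPM + 1), to 0.03 and 0.10, and DHCR7 moved to -0.09. The EBP call was also lost without C4-2B control replicate 1 (-0.47) and without H660 shCtrl replicate 1 (-0.31), and the NSDHL call without H660 shCtrl replicate 2 (-0.49). HSD17B7, a sterol ketone reductase, was at 0.43 and reached a call without C4-2B control replicate 2 (0.53), and the pseudogenes that carry its name had 14.7% as many counts. IDI1, FDPS, LSS, MVK, PMVK and CYP51A1 lay between -0.40 and 0.37 and were not called. On log2(TPM + 1) IDI1 (0.98), LSS (0.76), MVK (0.75), HSD17B7 (0.91) and FDPS (0.51) were called higher in H660, and PMVK (0.22) and CYP51A1 (0.19) turned sign without a call.

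SREBF1 differed more than any other control gene, with 411.5 and 482.8 CPM in C4-2B control and 30.1 and 30.5 CPM in H660 shCtrl (log2 difference -3.89 ± 0.11, edgeR adjusted p = 3.62e-11). SREBF2 was at 157.9 and 181.5 against 158.5 and 159 CPM (-0.10, edgeR adjusted p = 0.32; 0.50 on log2(TPM + 1)). The ratio of SREBF1 to SREBF2 by TPM was 3.17 and 3.23 in C4-2B control, 2.71 and 2.51 in C4-2B MYCL, 0.239 and 0.235 in H660 shCtrl and 0.131 and 0.149 in H660 shMYCL. SREBF1 was thus the more abundant transcript in every C4-2B library and the less abundant in every H660 library. INSIG1 was lower in H660 on counts (-0.65, edgeR adjusted p = 4.33e-05) and at -0.05 on log2(TPM + 1). STARD4 was higher in H660, at 62.2 and 62.2 against 18.1 and 18.8 CPM (1.74 ± 0.10, 2.1e-08). ABCG1 was lower (-0.82, edgeR adjusted p = 0.0203), a call lost without C4-2B control replicate 2 (-0.61), without H660 shCtrl replicate 1 (-0.45) and on log2(TPM + 1) (-0.27). TMEM97 was at -0.48, reached a call without H660 shCtrl replicate 1 (-0.57) and turned sign on log2(TPM + 1) (0.13).

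The 7 fatty acid genes lower in H660 were FASN, ACACA, ACSS2, FADS2, ACLY, LPIN1 and SCD, and of the 4 desaturases 2 were lower. FASN had 1093 and 1213 CPM in C4-2B control and 114.8 and 129.6 CPM in H660 shCtrl (log2 difference -3.24 ± 0.10, edgeR adjusted p = 7.91e-11), and ACACA 501 and 521.2 against 86.1 and 73.0 CPM (-2.69 ± 0.10, 3.41e-10). ACSS2 (-1.59), FADS2 (-1.44), ACLY (-1.30), the phosphatidate phosphatase LPIN1 (-1.18) and SCD (-0.89) followed, and SCD was at -0.27 and short of a call on log2(TPM + 1). SCD5, a stearoyl-CoA desaturase known from brain, had 40 and 10 counts in C4-2B control and 181.2 and 176.7 CPM in H660 shCtrl, a log2 difference of 7.57 ± 0.21 (edgeR adjusted p = 3.46e-11). By TPM, SCD5 was 50.9% to 54.8% of SCD in H660 and 0.0713% to 0.269% in C4-2B. ELOVL6 was higher in H660 by 0.88 on the log2 scale (edgeR adjusted p = 0.00123), and 0.26 with no call once log2(TPM + 1) was centred. FADS1, which acts after FADS2, was at 0.38 and not called, and was called at 0.96 on log2(TPM + 1). The calls on FASN, ACACA, ACSS2, FADS2, ACLY, LPIN1 and SCD5 held under every alternative run, as listed in the closing section.

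**Figure D4:**
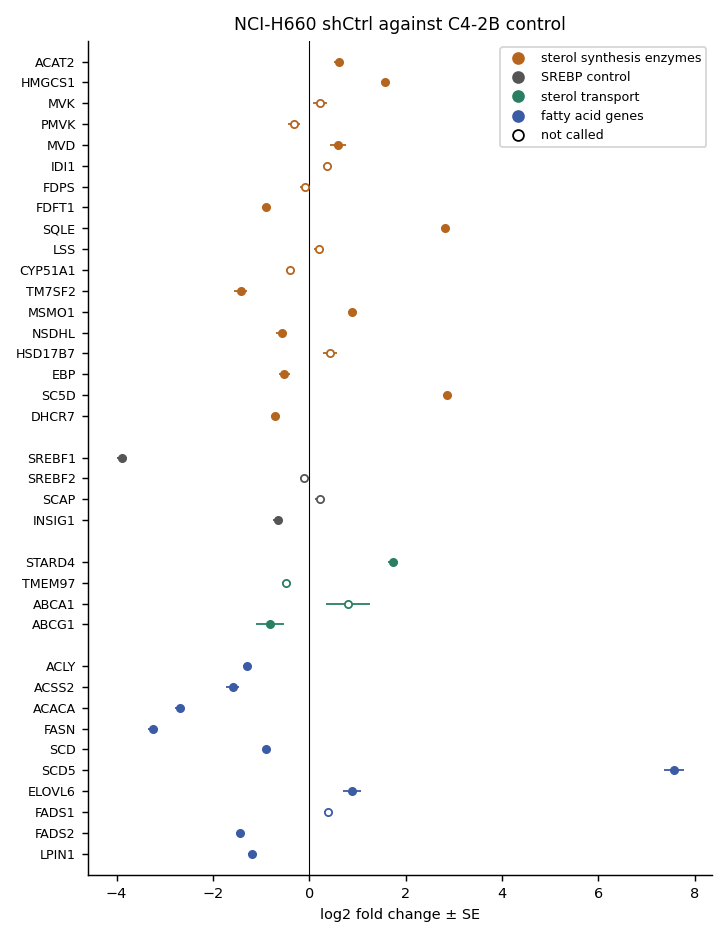
Log2 fold change of H660 shCtrl over C4-2B control with its SE (horizontal bars) for the 36 members, coloured by group, with filled points called. Fatty acid genes lay mostly left of 0, down to -3.24 (FASN), apart from SCD5 at 7.57; sterol enzymes lay on either side, and FDPS, NSDHL, EBP, SREBF2, CYP51A1, PMVK and TMEM97 change sign under TPM scaling.

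To set gain and loss of MYCL side by side, the effect of high over low MYCL was compared between the lines (MYCL minus control in C4-2B, shCtrl minus shMYCL in H660) with an interaction term over the 8 libraries. MYCL itself changed far more in C4-2B (log2 fold change 8.26) than in H660 (-3.06 on knockdown). A difference between the lines thus cannot be told apart from the size of the change in MYCL. The interaction called 6 of the 36 members, a share near the 17.9% of the 19605 genes tested that were called. Over all genes, 9.59% were called with a higher effect in C4-2B than in H660 and 8.33% with a lower one. The 6 members were 4 of the 18 sterol enzymes, 1 of the 4 SREBP control genes and 1 of the 10 fatty acid genes. FDFT1 was 0.52 in C4-2B and -0.18 in H660, a difference of 0.69 ± 0.13 (edgeR adjusted p = 0.0028). SREBF2 was 0.34 and -0.25 (difference 0.58 ± 0.13, 0.00651), NSDHL 0.01 and -0.57 (0.58 ± 0.17, 0.0259) and ELOVL6 0.24 and -0.61 (0.85 ± 0.24, 0.026). PMVK was -0.17 in C4-2B and 0.45 in H660 (difference -0.63 ± 0.17, edgeR adjusted p = 0.022). ACAT2 was lower with high MYCL in both lines, -1.11 and -0.36, and the size differed (-0.75 ± 0.13, edgeR adjusted p = 0.00162).

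TM7SF2 had the same sign and a similar size in both lines, 0.63 in C4-2B and 0.51 in H660, with a difference of 0.12 whose approximate 95% interval ran from -0.24 to 0.48. ABCG1 was 1.79 and 0.89 (difference 0.89, edgeR adjusted p = 0.107, and 1.34 with a call without H660 shCtrl replicate 2). TMEM97 was -0.74 and -0.37 (difference -0.37, edgeR adjusted p = 0.0759), and SREBF1 was 0.06 and 0.48 (-0.43, 0.0549, and -0.55 with a call without C4-2B control replicate 1). SQLE was -0.37 and -0.35, with a difference of -0.02 and an approximate 95% interval from -0.29 to 0.24. CYP51A1 was -0.34 and -0.49, with a difference of 0.14 (edgeR adjusted p = 0.457). Leaving out C4-2B control replicate 1 also made a call of SCD5 (1.95, beside 0.90), and leaving out H660 shCtrl replicate 2 made one of ACSS2 (0.56, beside 0.37).

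**Figure D5:**
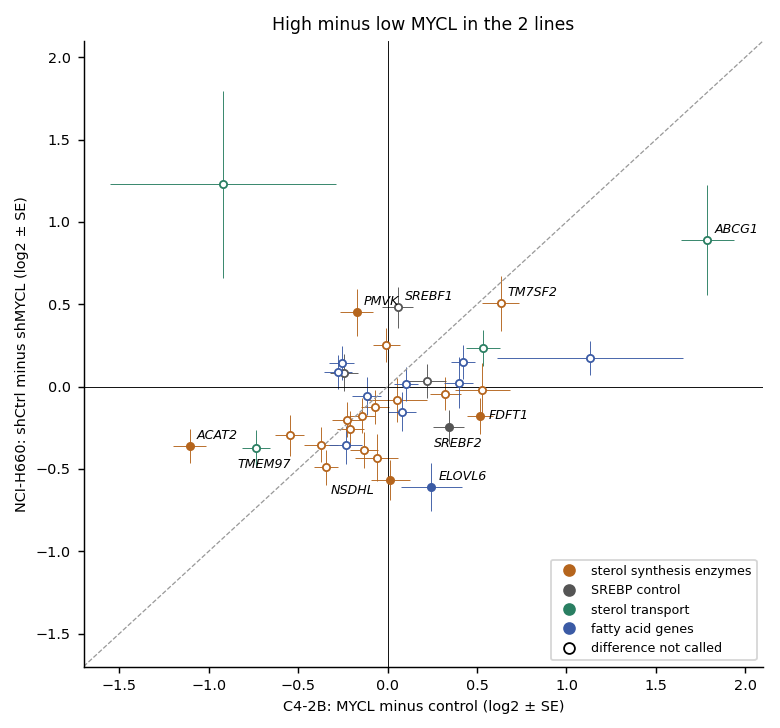
Effect of high over low MYCL on the log2 scale in C4-2B (horizontal) and H660 (vertical), with SE on both axes, for the 36 members; the dashed line marks equal effects, and filled points had a called difference. ACAT2 (-1.11, -0.36) and TMEM97 (-0.74, -0.37) lay low in both lines, TM7SF2 (0.63, 0.51) and ABCG1 (1.79, 0.89) high in both, and FDFT1 lay on either side of 0 (0.52, -0.18).

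Genes around the members were read from 5 lists. In C4-2B, 0 of 10 further sterol and isoprenoid genes rose and 2 fell, 2 of 16 genes of SREBP processing and sterol-regulated turnover rose and 2 fell, and 4 of 12 tested genes of sterol storage, uptake and egress rose and 0 fell. Of 28 tested genes of fatty acid synthesis and esterification 9 rose and 2 fell, and of 17 genes of fatty acid oxidation 3 rose and 1 fell. Over all genes 11.8% rose and 8.12% fell in C4-2B. In H660 the counts in the same order were 1 rose and 0 fell, 1 and 2, 0 and 1, 0 and 2, and 2 and 1, where 7.18% of all genes rose and 8.99% fell. The genes named below were called with a log2 fold change of 1 or more in either direction, apart from LBR and UFD1.

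LBR, which shares the reductase step of TM7SF2 and was chosen after its values were seen, was at 181 and 180.1 CPM in C4-2B control and 132.7 and 133 CPM in MYCL (log2 fold change -0.44, edgeR adjusted p = 0.00144). On knockdown in H660 the log2 fold change of LBR was 0.07 (edgeR adjusted p = 0.669). The elongase ELOVL7 fell in C4-2B from 400.8 and 389.2 CPM to 150.8 and 141.9 CPM (-1.43 ± 0.07, edgeR adjusted p = 7.89e-06). Higher in C4-2B were the glucose-responsive factor MLXIPL (1.39), the acyl-CoA synthetase ACSL5 (1.62) and the thiolase ACAA2 (1.07), with edgeR adjusted p from 0.000388 to 0.00665. GRAMD1B, a carrier of cholesterol from the plasma membrane, had 3 and 4 counts in C4-2B control and 24 and 28 in MYCL, ELOVL4 had 6 and 2 against 17 and 10, and HACD1 had 0 and 3 against 12 and 10.

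INSIG2, a further anchor of SCAP, and VLDLR, a lipoprotein receptor, followed MYCL in both lines. They were picked by their calls in these same data, and the share of all genes that did the same was not counted. UFD1, from the same list as INSIG2, was called against MYCL in both lines (-0.51 in C4-2B and 0.55 on knockdown in H660). INSIG2 rose in C4-2B from 38.17 and 31.97 CPM to 50.01 and 52.59 CPM (log2 fold change 0.55 ± 0.10, edgeR adjusted p = 0.00326) and fell in H660 from 83.1 and 102.3 CPM to 34.0 and 32.7 CPM (-1.48 ± 0.12, 1.01e-06). VLDLR rose in C4-2B from 12.6 and 11.3 CPM to 21.8 and 21.3 CPM (0.85 ± 0.11, edgeR adjusted p = 0.000662) and fell in H660 from 49.3 and 66.1 CPM to 24.7 and 20.8 CPM (-1.35 ± 0.15, 1.51e-05). The effect of high over low MYCL on INSIG2 was larger in H660 (difference -0.93, edgeR adjusted p = 0.00207), and that on VLDLR did not pass the test of the difference (-0.50, 0.114).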

How the data were processed

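RNA sequencing of 8 libraries was analysed. The authors deposited a table of estimated counts per gene for poly(A)-selected paired-end libraries, not normalised between libraries, and separately TPM values, which divide by gene length and scale each library to the same sum. Per the labels the build is hg38. The aligner, the counting tool and the strand setting are not given in the sources used here. There are 78691 genes with counts and 65535 with TPM, and all 36 members have both.

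The estimated counts were rounded to whole numbers and tested with edgeR 4.0.16 (quasi-likelihood, TMM scaling, filterByExpr, R 4.3.3), with Benjamini-Hochberg adjustment over all genes tested. Each comparison was fitted on its own groups of 2, and the interaction on all 8 libraries. A call needed an adjusted p under 0.05 with a log2 fold change of 0.5 or more in either direction. An exact permutation test of 2 against 2 cannot go below p = 0.33, so none is given. CPM values are scaled by TMM over the 8 libraries, and levels were compared between genes by TPM only. Errors are SE of the fit. The fitted biological variation between libraries (coefficient) was 0.0829 for C4-2B and 0.0965 for H660. DESeq2 1.42.0, limma 3.58.1 on log2(TPM + 1), another scaling, other filters, other fold limits, a replicate block and leaving out each library were run as alternatives. The fits were tested on simulated data. A count of 0 allows up to 3 counts, for counting error only.

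All 36 members are reported, MYCL serves as the check of the labels, and genes of the surrounding lists are named only where called with a log2 fold change of 1 or more in either direction in a MYCL comparison; 1 such gene is not reported here. The members and the gene lists were chosen with earlier results of these data known. Gene positions are from GENCODE 44. Promoter windows are from RefSeq on GRCh38.p14.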

Additional observations from a re-analysis of the deposited data

Results flagged for a closer look

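A test of the difference between the lines picked out 6 of the 36 members, a share near the 17.9% of all 19605 genes tested. For these 6 the effect of high over low MYCL was not the same in C4-2B and H660 (C4-2B minus H660, log2 scale). The size of the change in MYCL differed between the lines as well. The difference was -0.75 for ACAT2 (edgeR adjusted p = 0.00162), -0.63 for PMVK (0.022), 0.69 for FDFT1 (0.0028), 0.58 for NSDHL (0.0259), 0.58 for SREBF2 (0.00651) and 0.85 for ELOVL6 (0.026). ACAT2 kept its call when any single library was left out, as did FDFT1. The call on SREBF2 was lost without C4-2B control replicate 1 (0.48), on log2(TPM + 1) with or without a filter (0.46) and on log2(TPM + 0.1) (0.47). That on FDFT1 was lost on unfiltered log2(TPM + 1) and on log2(TPM + 0.1) (0.51 on each), and those on NSDHL (0.44 to 0.53) and ELOVL6 (0.66 to 0.76) on every TPM scale. None of the 6 reached a log2 difference of 1. The call on PMVK was lost with DESeq2 (adjusted p = 0.0504), without C4-2B control replicate 1 or 2 (-0.66 and -0.60), without C4-2B MYCL replicate 2 (-0.57), without H660 shCtrl replicate 2 (-0.49) and without H660 shMYCL replicate 1 (-0.59). NSDHL lost it without C4-2B control replicate 2 (0.52), C4-2B MYCL replicate 2 (0.46), H660 shCtrl replicate 2 (0.51) or either H660 shMYCL library (0.62 and 0.52). ELOVL6 lost it without C4-2B control replicate 1 (0.64), C4-2B MYCL replicate 1 (0.77), H660 shCtrl replicate 2 (0.63) or either H660 shMYCL library (0.85 and 0.83). Groups of 2 libraries were too small for a test of single samples that stand apart.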

How the results depend on the processing

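With 2 libraries a group, calls near the fold threshold of 0.5 turned on small shifts, and no cause of such a shift was tested. In C4-2B the genes called went from 3355 to 5895 with no minimum fold, 1411 with a log2 fold change of 1 or more in either direction and 1940 on unfiltered log2(TPM + 1), and to 2835 to 3556 with a library left out. Called sterol enzymes went from 5 to 8 with no minimum fold, 1 at the higher fold, 3 on log2(TPM + 1) or log2(TPM + 0.1), 2 on unfiltered TPM, and 3 to 5 with a library left out. Called fatty acid genes went from 0 to 4 with no minimum fold, to 1 in the fit of all 4 groups and with the replicate block, and 0 to 1 with a library left out; that gene was SCD5.

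In H660 the genes called went from 2745 to 4204 with no minimum fold, 1022 at the higher fold, 1702 on log2(TPM + 1), 1692 once centred, 1600 on log2(TPM + 0.1), 1 on unfiltered TPM, and 2292 to 3035 with a library left out. Called sterol enzymes went from 2 to 8 with no minimum fold, 1 with DESeq2, 1 on each filtered TPM scale, 0 at the higher fold or on unfiltered TPM, and 1 to 4 with a library left out. Called fatty acid genes went from 1 to 2 with no minimum fold, 0 at the higher fold and on every TPM scale, and 0 to 1 with a library left out.

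Between the lines the genes called went from 13427 to 8934 with at least 10 counts in every library, and 13079 to 13568 with a library left out. Called sterol enzymes went from 11 to 4 at the higher fold and 9 to 11 with a library left out, and called fatty acid genes stayed at 9 with any library left out, with 10 at no minimum fold, 7 at the higher fold and 8 on centred TPM. On log2(TPM + 1), unfiltered log2(TPM + 1) and log2(TPM + 0.1) the sign turned for FDPS (0.51, 0.51 and 0.52), NSDHL (0.03 on each), EBP (0.10 on each) and SREBF2 (0.50, 0.50 and 0.51). It also turned for PMVK (0.22, 0.22 and 0.23), CYP51A1 (0.19 on each) and TMEM97 (0.13 on each), none of them called on counts or on these scales. In the interaction the called sterol enzymes went from 4 to 0 at the higher fold, 2 on unfiltered TPM and log2(TPM + 0.1), and 2 to 4 with a library left out. The called fatty acid genes went from 1 to 2 with no filter, with at least 10 counts in every library, with the replicate block, with no minimum fold and on log2(TPM + 1) or log2(TPM + 0.1), to 0 at the higher fold and on centred TPM, and 0 to 1 with a library left out.

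The deviations of libraries with the same replicate number correlated at 0.00146 in C4-2B, 0.00759 in H660 and 0.0196 between the control groups, over 15876 genes. With 2 libraries a group this cannot show whether such libraries shared handling or culture. With the replicate block 3536 genes were called in C4-2B, 2949 in H660 and 13118 between the lines.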
